A study of Mus musculus with 18 samples.

Results

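Meiotic recombination in mice starts at hotspots, short stretches of the genome where DNA double strand breaks form in spermatocytes. PRDM9 is a zinc finger methyltransferase that binds these sites and places H3K4me3 and H3K36me3 there, and the break machinery then acts at a subset of them. DMC1 is the meiosis-specific recombinase that coats the single-stranded DNA at a break, so DMC1 ChIP-seq reads out how much break-associated DNA each hotspot held. The sites described here are 270 autosomal hotspots at which DMC1 in Prdm9 heterozygotes was low relative to C57BL/6J. They were chosen from the 8744 autosomal rows of a deposited list of 9132 shared DMC1 sites (the other 388 were on the X). A row was taken when its ratio of Prdm9 het to B6 DMC1 was at most 0.4 times the autosomal median of that ratio, which selected 3.09% of the autosomal rows.

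The study covered 18 samples in 12 groups of spermatocytes from 14-day-old mice, and 6 columns of values for 5 groups (10 samples) were used. The control, B6, was strain C57BL/6J. The heterozygotes were Prdm9+/-, with no allele named. The Ewsr1 CKO animals were conditional knockouts of Ewsr1, which encodes an RNA-binding protein, made with Stra8-iCre, a Cre recombinase driven by a promoter active in male germ cells before meiosis. The genetic background of Prdm9+/- and Ewsr1-CKO, their littermates and any pooling of animals were not given in the labels. The columns used were DMC1 for B6, Prdm9 het and Ewsr1 CKO, and H3K4me3 and H3K36me3 for Ewsr1 CKO. A further 4 mark columns matched no sample and were not used. Values were in RPM (reads scaled by a denominator that is not stated). Each column gave 1 value per group, although each group has 2 samples. There was therefore no spread between animals, every value below describes the deposited columns, and no test was made. In bulk chromatin, fewer cells with a break and less DMC1 per break cannot be told apart. No measure of cell type was available to check the spermatocyte label.

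The columns were not on the same footing. Over all listed rows, the X included, DMC1 summed to nearly the same in B6 (867788 RPM) and Ewsr1 CKO (867820 RPM). The heterozygote summed to 153235 RPM. Over the autosomal rows DMC1 summed to 713518 RPM (B6), 765437 RPM (Ewsr1 CKO) and 136064 RPM (heterozygote). The median Prdm9 het to B6 ratio was accordingly 0.186, so the rule corresponds to a ratio of 0.0746. Ratios are given below divided by that median and called relative ratios, where 1 is the typical autosomal hotspot. They describe how a site stood among other sites of the heterozygote and not its absolute break number.

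A RefSeq promoter window of 300 bases around a gene's start (GRCm38.p6, the assembly of mm10) touched 4 depleted sites (1.48%), beside 1.57% of sites matched on B6 DMC1 and 1.88% of all autosomal rows, so the share was near the background. All 4 were weaker in B6 than the autosomal median of 47.3 RPM. Of these windows, 2 lay wholly inside a depleted site. They are shown as the stretches inside depleted hotspots that the sequence tables used here hold. Both belong to lncRNA genes, on the strand of the gene, and capitals mark the last 50 bases, from the gene's start on.
Gm31577, chr14:15321834-15322133, minus strand: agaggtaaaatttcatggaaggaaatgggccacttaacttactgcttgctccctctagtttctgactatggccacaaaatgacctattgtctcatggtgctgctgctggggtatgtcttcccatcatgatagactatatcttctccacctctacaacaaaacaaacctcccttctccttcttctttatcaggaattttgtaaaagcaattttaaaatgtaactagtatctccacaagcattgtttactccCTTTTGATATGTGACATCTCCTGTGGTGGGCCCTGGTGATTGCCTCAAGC
Gm40120, chr3:107380559-107380858, plus strand: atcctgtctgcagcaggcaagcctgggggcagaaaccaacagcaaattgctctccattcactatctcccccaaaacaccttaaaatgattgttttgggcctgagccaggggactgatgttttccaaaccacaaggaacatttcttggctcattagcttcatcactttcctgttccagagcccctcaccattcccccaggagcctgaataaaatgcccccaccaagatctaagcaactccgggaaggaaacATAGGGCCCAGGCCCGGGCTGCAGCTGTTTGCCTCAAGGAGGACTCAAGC
The Gm31577 window lies in chr14:15320762-15323016, a site of the longest run, with DMC1 of 29.2 RPM (B6), 30.9 RPM (Ewsr1 CKO) and 0.370 RPM (heterozygote) and Ewsr1 CKO H3K4me3 of 0.831 RPM. The Gm40120 window lies in chr3:107379422-107381278, a site outside runs, with 10.7, 9.33, 0.759 and 1.28 RPM in the same order. GC content was 41.7% and 52.0%, beside a median of 52.7% over 32851 promoter windows, and the windows held 0 and 2 CpG dinucleotides, beside a median of 7.

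The relative ratio chose the sites, so its values at them are a description. It ranged from 0 to 0.399 with a median of 0.226. Median DMC1 over the 270 was 29.1 RPM (B6), 35.1 RPM (Ewsr1 CKO) and 0.898 RPM (heterozygote). The autosomal medians were 47.3, 56.0 and 9.02 RPM. In Prdm9 het, DMC1 was under 1 RPM at 143 depleted sites (53.0%) and at 72 of the 8474 other autosomal sites (0.850%). The 5 sites just inside the threshold had B6 values from 8.75 to 28.7 RPM and Prdm9 het values from 0.651 to 2.13 RPM. The 5 just outside it had 8.36 to 51.1 RPM and 0.623 to 3.81 RPM. There was no gap in the ratio at the threshold, and another 217 sites had a relative ratio above 0.4 and up to 0.5, of which 47 were at or above the autosomal B6 median.

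Many of the lowest ratios were found at stronger sites. At 79 of the 270, 0.903% of autosomal rows, the relative ratio was at most 0.1, a limit chosen after the values were seen. These deeply depleted sites had a median of 82.6 RPM in B6, whereas the remaining 191 had a median of 23.4 RPM. They were of mixed strength, with 48 at or above the autosomal B6 median and 31 below it. Their median in Prdm9 het was 0.433 RPM, and in Ewsr1 CKO it was 94.3 RPM. When autosomal sites were split by B6 DMC1 into 4 classes of about equal number, depleted sites made up 5.25% of the weakest class, 2.55% and 1.42% of the next ones and 3.16% of the strongest. Deeply depleted sites made up 0.598%, 0.819%, 0.503% and 1.69% in the same order. Of the 69 depleted sites in the strongest class, 37 were deeply depleted.

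**Figure D1:**
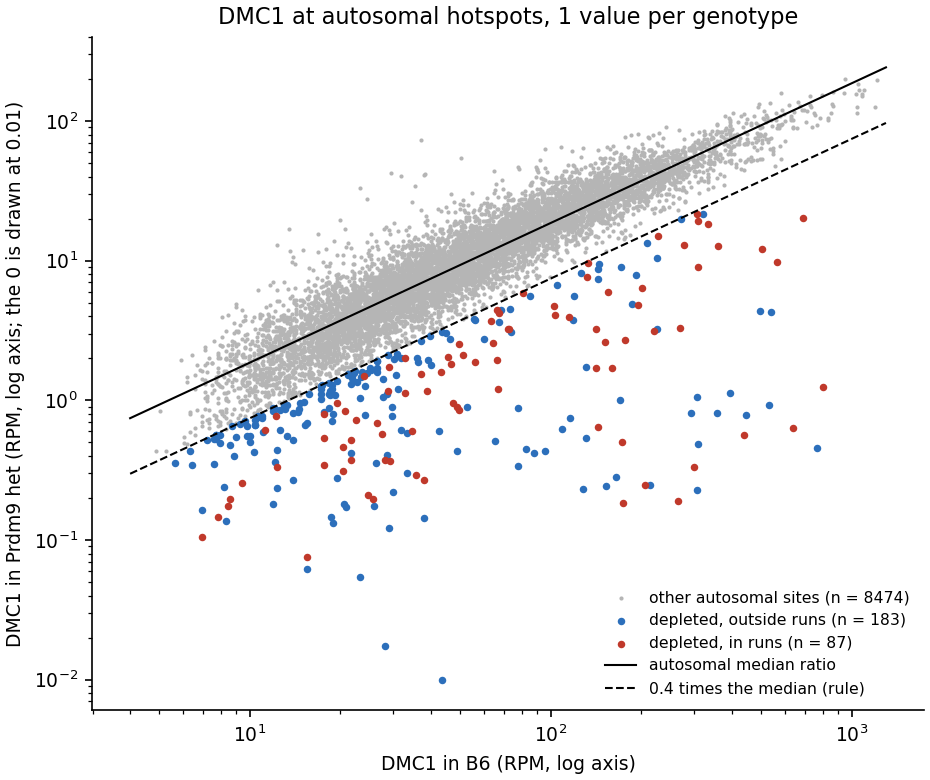
DMC1 at each autosomal hotspot in B6 (horizontal, RPM, log axis) and in Prdm9 het (vertical, RPM, log axis), with 1 value per genotype; the solid line is the autosomal median ratio and the dashed line 0.4 times it, and the site listed at 0 is drawn at the bottom. The 183 depleted sites outside runs (blue) include many weak sites along the dashed line, while strong sites near or below 1 RPM in Prdm9 het are seen both in runs (red, 87 sites) and outside them.

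Among sites at or above the B6 median, 3 had the lowest relative ratios. At chr9:83859376-83862215, inside Ttk, which encodes a spindle checkpoint kinase, DMC1 was 766 RPM (B6), 674 RPM (Ewsr1 CKO) and 0.454 RPM (heterozygote), a relative ratio of 0.00318. At chr3:38116868-38119524, outside annotated genes, the values were 264, 218 and 0.191 RPM. At chr9:104455112-104458095, also outside annotated genes, they were 306, 218 and 0.229 RPM. All 3 were thus strong in B6 and in Ewsr1 CKO and nearly empty in the heterozygote. The only site listed at 0 RPM in Prdm9 het was chr3:33284688-33287233, where B6 had 43.3 RPM and Ewsr1 CKO 38.3 RPM.

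Depleted sites were present on 18 of 19 autosomes, with none among the 211 listed sites of chromosome 19. Chromosome 14 held 79 of them, which was 29.3% of all depleted sites on a chromosome with 4.75% of the autosomal rows. There, 19.0% of listed sites were depleted. On the other autosomes the share ran from 0 to 6.06%, with chromosome 9 (28 sites), chromosome 8 (24), chromosome 6 (23), chromosome 7 (19) and chromosome 3 (16) following. Deeply depleted sites were found on 11 autosomes. Of these 79 sites, 22 were on chromosome 14, 18 on chromosome 9, 14 on chromosome 8 and 8 on chromosome 3. These 4 chromosomes held 78.5% of the deeply depleted sites and 21.1% of autosomal rows.

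**Figure D2:**
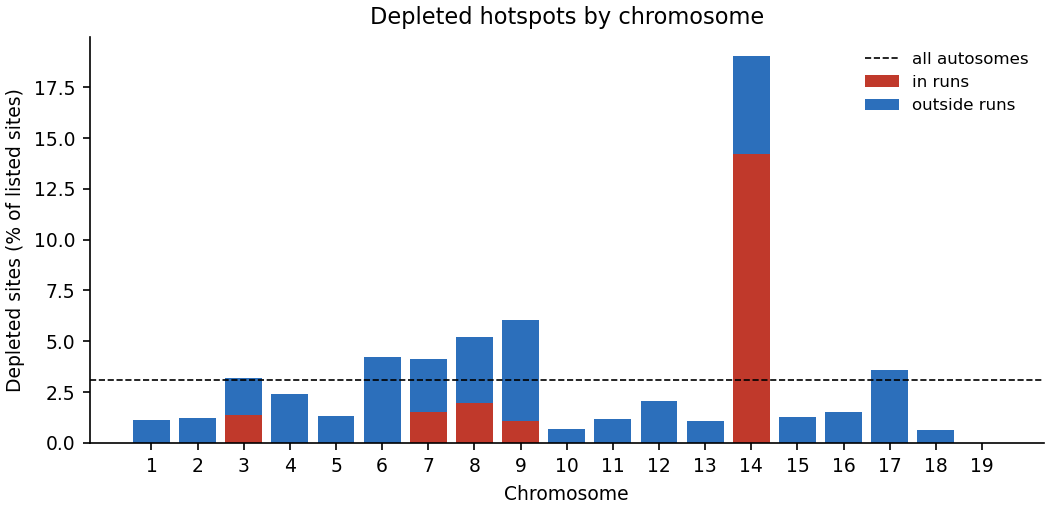
Percent of the listed autosomal hotspots of each chromosome that were depleted in Prdm9 het, split into sites in runs (red) and outside runs (blue); the dashed line is the share over all autosomes, 3.09%. Chromosome 14 reached 19.0%, with most of its depleted sites in runs, and no other chromosome was above 6.06%.

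Depleted sites lay next to each other. Of the 270, 110 (40.7%) had a depleted site as the adjoining listed row on at least 1 side, whereas 349 of the other autosomal sites (4.12%) did. Runs were defined as stretches in which no more than 2 rows above the threshold separated neighbouring depleted sites, with at least 5 depleted sites. There were 7 runs, and they held 87 depleted sites (32.2%). A further 62 sites fell in 29 shorter chains of 2 to 4, and 121 stood alone. Sites in runs were stronger in B6 than those outside (median 56.2 against 24.0 RPM) and had lower relative ratios (0.147 against 0.284). Since runs are made from the same ratio as the members, these values are a description too.

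The longest run opened the listed part of chromosome 14. It spanned 11.7 Mb, chr14:8025736-19748450, and 46 of its 54 rows (85.2%) were depleted. Its first site, inside Abhd6, which encodes a monoacylglycerol lipase, was the first row of the chromosome in the table, so no bound was measured on that side. On the other side the nearest row started 489 kb further on and had a relative ratio of 0.783. The next rows had 0.442, 0.462 and 0.770, so ratios stayed under the typical value beyond the run. Depth varied within the run: relative ratios ran from 0.0264 to 0.390 with a median of 0.203, and 11 of the 46 were at most 0.1. The strongest site, chr14:14738785-14741447 inside the bicarbonate transporter gene Slc4a7, had 502 RPM (B6), 460 RPM (Ewsr1 CKO) and 12.2 RPM (heterozygote). The next, chr14:12833634-12836387, had 332, 339 and 18.3 RPM. The 43 protein-coding genes of this interval include Fhit, Ptprg and the nuclear receptor genes Rarb and Thrb.

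Intact sites, with relative ratios of 0.8 or more, were nevertheless present inside this run. A neighbouring pair near its middle, chr14:13667875-13670124 and chr14:13933945-13936572, had relative ratios of 3.62 and 3.45, well above the typical hotspot. DMC1 at the first was 64.8 RPM (B6), 84.7 RPM (Ewsr1 CKO) and 43.8 RPM (heterozygote), and at the second 46.4, 50.8 and 29.9 RPM. Weaker sites at chr14:10649242-10651350 and chr14:17644447-17645910 both had a relative ratio of 1.11. The other 4 rows above the threshold lay between 0.411 and 0.577.

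A run of 9 depleted sites spanned 2.26 Mb of chromosome 8, chr8:31089970-33349456. It held the whole of Nrg1, the gene of a growth factor of the EGF family, and reached Dusp26, a phosphatase gene, and Wrn, a RecQ helicase gene. Its strongest site, chr8:32248524-32251667 inside Nrg1, was also the strongest depleted site in B6, where it read 800.0 RPM, against 534 RPM (Ewsr1 CKO) and 1.25 RPM (heterozygote). A second site in Nrg1, chr8:32085747-32088610, had 360, 283 and 12.7 RPM. In all, 4 rows of the run were above the threshold. Of these, chr8:32413612-32415605, again inside Nrg1, had 12.0 RPM (B6) and 7.02 RPM (heterozygote), a relative ratio of 3.15. At chr8:31312305-31315197 the values were 68.4 and 22.3 RPM, a relative ratio of 1.75. Depleted sites thus lay on both sides of an intact one within the same gene. The rows bounding the run had relative ratios of 1.78 and 2.25, but ratios further out were mixed. Going outward before the run, the next rows had 1.82, 0.493 and 0.102, the last a depleted site. After it the next rows had 0.468, 1.54 and 0.781.

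The runs on chromosomes 3 and 9 were short and held no row above the threshold. On chromosome 3, all 7 sites in 0.841 Mb, chr3:38116868-38957986, were depleted, with relative ratios from 0.00388 to 0.157. The last pair of sites lay in Fat4, which encodes an atypical cadherin. At chr3:38903651-38906584 DMC1 was 640.1 RPM (B6), 590.0 RPM (Ewsr1 CKO) and 0.638 RPM (heterozygote), and at chr3:38955146-38957986 it was 440, 427 and 0.566 RPM. The strongest site of the run, chr3:38520601-38523784, had 688, 554 and 20.2 RPM. The rows on both sides were not depleted: the row before, inside Spata5, had a relative ratio of 5.79 (37.9 RPM in B6, 41.0 RPM in the heterozygote) and the row after had 2.21. No site was listed for 555 kb before and 464 kb after the run, so where depletion ended was not resolved.

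On chromosome 9, a run named after its values were seen, all 5 sites in 0.565 Mb, chr9:41674634-42239312, were depleted, with relative ratios from 0.00646 to 0.129. The strongest, chr9:41848848-41851990, had 566 RPM (B6), 360 RPM (Ewsr1 CKO) and 9.71 RPM (heterozygote). The next, chr9:42010231-42013061 in Sorl1, the gene of an endosomal sorting receptor, had 270, 287 and 3.29 RPM. Its bounding rows had relative ratios of 2.57 and 1.07. Beyond intact rows, a further deeply depleted site, chr9:41027581-41030278, lay before this run, with a relative ratio of 0.00972. Likewise chr3:36587645-36590791 and chr3:36886224-36889450 lay before the chromosome 3 run, at 0.0479 and 0.0426.

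The other 3 runs lay on chromosomes 7 and 14. The run at chr7:115368292-117403135 had 7 depleted sites among 13 rows, with relative ratios from 0.122 to 0.318 and none at most 0.1. Its bounding rows had relative ratios of 0.792 and 0.520, both under the typical value. The adherens junction gene Plekha7 held both kinds, where 3 depleted sites were weak in B6 (8.62 to 17.6 RPM) and the intact site chr7:116254448-116257143 had a relative ratio of 2.51. A stronger row in Plekha7, chr7:116135990-116138835, had 175 RPM in B6 and lay just above the threshold, at 0.437. The strongest depleted site of the run, chr7:116336761-116339464 in the lipid kinase gene Pik3c2a, had 200.2 RPM (B6), 212 RPM (Ewsr1 CKO) and 6.33 RPM (heterozygote).

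Another pair of runs lay further along chromosome 14, separated by only 4 rows with relative ratios of 0.712, 0.525, 1.10 and 1.39, so that their division rests on the run rule. That at chr14:46501833-48380717 had 6 depleted sites among 9 rows. Its first site had 299 RPM (B6), 211 RPM (Ewsr1 CKO) and 0.331 RPM (heterozygote), and its strongest, chr14:47679041-47681643 inside Ktn1, which encodes kinectin, had 310, 247 and 9.06 RPM. The 3 rows above the threshold had relative ratios from 0.813 to 2.05, and the bounding rows 2.03 and 0.712. The run at chr14:49251592-54323251 had 7 depleted sites among 8 rows over 5.07 Mb, an interval with 37 olfactory receptor genes and 172 T cell receptor V and J segments, and its bounding rows had 1.39 and 0.850. Its strongest site, chr14:54231743-54234538, had 173 RPM (B6), 187 RPM (Ewsr1 CKO) and 0.183 RPM (heterozygote). At chr14:52127787-52130572, inside the ciliary gene Rpgrip1, the values were 144, 144 and 0.642 RPM.

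Across all 7 runs, 22 rows were above the threshold, 12 of them intact and 10 between 0.4 and 0.8. The intact rows had a median B6 value of 68.6 RPM and a median relative ratio of 1.62. Of the 22, 5 had a relative ratio of 2 or more, a level reached by 2.92% of autosomal rows. As shares of all DMC1 in the rows of a run, the depleted sites of the chromosome 8 run took 84.7% in B6 and 27.5% in Prdm9 het, and those of the longest run took 86.0% and 56.2%. In the 2 later runs of chromosome 14 the shares were 84.8% and 46.2% for the first and 87.7% and 32.5% for the second. In the chromosome 7 run the depleted sites held only 36.5% in B6 and 10.8% in Prdm9 het, so most DMC1 of that interval lay at rows above the threshold. The runs on chromosomes 3 and 9 held no other row. Outside the runs, chromosome 14 was still low, with 20 depleted sites among 344 rows (5.81%) and a median relative ratio of 0.832. Medians of the other autosomes lay between 0.897 and 1.13.

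**Figure D3:**
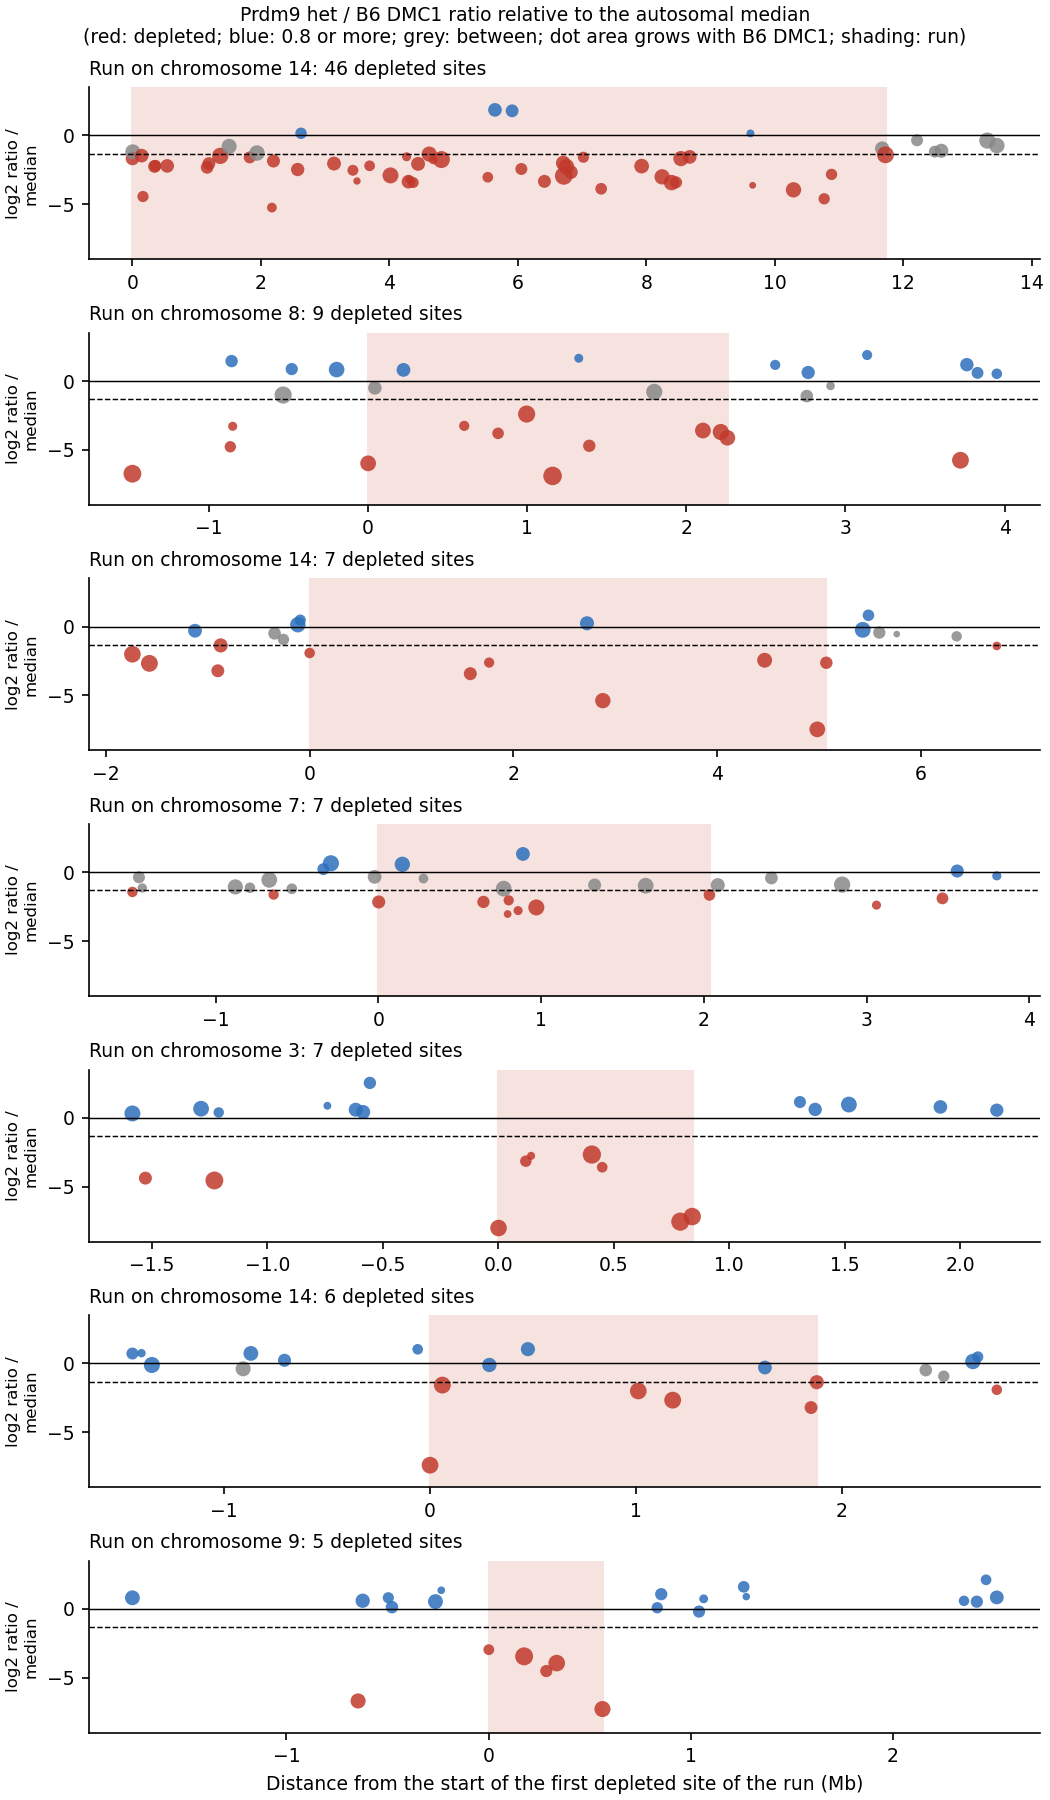
Relative Prdm9 het to B6 DMC1 ratio (log2, vertical) against the distance in Mb from the first depleted site for each of the 7 runs, with 2 Mb on each side where sites are listed. Shading marks the run, the solid line the autosomal median, the dashed line the rule, and dot area grows with B6 DMC1. In the longest run relative ratios of depleted sites spread from 0.0264 to 0.390 with the pair at 3.62 and 3.45 above. In the chromosome 3 and chromosome 9 runs the adjoining rows are intact, and further depleted sites stand apart within the flanks drawn.

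Among the shorter chains, 4 had 3 depleted sites each, and they are named after their values were seen. At chr5:22975333-23179732 all 3 sites lay in Lhfpl3, with 309, 109 and 210 RPM in B6 and 0.488, 0.624 and 13.3 RPM in Prdm9 het. On chromosome 8 a chain from chr8:14623140 to 15122176 held a site in the postsynaptic scaffold gene Dlgap2 and a pair in Myom2, which encodes a muscle M-band protein, with 170, 447 and 293 RPM in B6 and 1.01, 0.786 and 0.806 RPM in Prdm9 het, and 1 row above the threshold within it. Another began at chr8:29609498-29612455 with 532 RPM (B6), 519 RPM (Ewsr1 CKO) and 0.930 RPM (heterozygote). Its other members, chr8:30225174-30226871 and chr8:30239886-30241881, were weak, at 25.8 and 12.3 RPM in B6 and 0.176 and 0.235 RPM in Prdm9 het, and 1 row above the threshold lay within the chain. The chain in the junction scaffold gene Magi1 on chromosome 6 was weaker, at 23.3 to 36.1 RPM in B6, with relative ratios from 0.208 to 0.280.

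Among sites outside runs the strongest in B6 were the Ttk site and the chr8:29609498 site already given, together with chr3:36886224-36889450 inside 4932438A13Rik, where DMC1 was 539 RPM (B6), 402 RPM (Ewsr1 CKO) and 4.28 RPM (heterozygote). Deep depletion was thus seen at strong hotspots outside runs as well as in them. For the chr8:29609498 site this rests on the run rule. Only rows with relative ratios of 0.493, 1.82 and 1.78 part its chain from the chromosome 8 run. Of the 79 deeply depleted sites, 30 were in runs and 49 were not.

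The Ewsr1 CKO column offers a DMC1 measure that the rule did not use, although its ratio to B6 shares the B6 values with the rule. Each depleted site was set against the 20 autosomal sites above the threshold nearest to it in B6 DMC1. DMC1 in Ewsr1 CKO was slightly lower than at those matched sites: the median log2 difference was −0.15, with quartiles of −0.39 and 0.12, and 172 of 270 sites were below their matched median. The difference was nearer 0 at sites with at least the autosomal median of B6 DMC1 (−0.049, 100 sites) and in runs (−0.044, 87 sites) than outside runs (−0.20, 183 sites). The value in runs joined 0.040 in the longest run (26 of 46 above matched) and −0.098 in the other runs (27 of 41 below). At the deeply depleted sites it was −0.094, with 49 of 79 below. By the same 0.4 rule applied to Ewsr1 CKO over B6, 1 of the 270 was called, beside 0.355% of autosomal rows. A ratio at least 1.5-fold below the autosomal median was found at 31 of them (11.5%), beside 6.78% of autosomal rows. The B6 column is common to the rule, the matching and this ratio, and its part in these small differences was not tested.

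H3K4me3 in Ewsr1 CKO was likewise not used by the rule. No input level was set against it. The median was 0.713 RPM at the 270 sites and 0.746 RPM at their matched sites, a median log2 difference on the log2(RPM + 0.1) scale of −0.070 (quartiles −0.53 and 0.38). The median difference was negative in the classes with relative ratios above 0.2 and positive in the deeper ones, without a strict order by depth. The deepest classes were also the strongest in B6. At sites with relative ratios of 0.3 to 0.4 the median difference was −0.28, and it was −0.070 from 0.2 to 0.3, 0.10 from 0.1 to 0.2, 0.24 from 0.05 to 0.1 and 0.22 up to 0.05. Deeply depleted sites had a median of 1.16 RPM, and 46 of 79 were above their matched sites. Their median difference of 0.22 was 0.25 when matched on Ewsr1 CKO DMC1 instead, 0.26 within the same chromosome, 0.18 per kb of site width and 0.24 for the 57 sites off chromosome 14. Depth and B6 strength moved broadly together, with class medians in B6 of 21.2, 28.8, 27.5, 48.6 and 122 RPM in the same order. Split by both, a division made after the values were seen, the median difference was 0.49 at the 48 deeply depleted sites at or above the autosomal B6 median (35 above matched) and −0.095 at the other 52 sites of that strength (25 above). Below the B6 median it was −0.17 at the 31 deeply depleted sites and −0.16 at the other 139. The split did not equalise strength: at or above the B6 median, the deeply depleted sites had a median of 173 RPM and the others 123 RPM in B6. These differences were not tested. The quartiles of every depth class overlapped those of the others, so single sites were spread on both sides of 0.

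Among the 270 the 3 highest H3K4me3 values fell at deeply depleted sites. At depleted sites with relative ratios above 0.1 the highest was 4.34 RPM, and the autosomal maximum was 8.75 RPM at a site above the threshold. The 3 highest were 6.85 RPM at chr8:31089970-31093158 in Dusp26 (B6 DMC1 172 RPM, heterozygote DMC1 0.507 RPM), 5.51 RPM at chr14:54231743-54234538 and 5.29 RPM at the Nrg1 site chr8:32248524-32251667. Of these, only the Nrg1 site overlapped an entry of the deposited H3K4me3 site list. The matched sites of these had medians of 1.31, 1.49 and 2.33 RPM. Runs differed in their medians. In the longest run H3K4me3 was lower than at matched sites (median difference −0.23, 29 of 46 below), whereas in the other 6 runs combined it was higher (0.53, 10 of 41 below). Within the same chromosome these values were −0.37 and 0.64. Within the 6, the median was 0.14 in the chromosome 7 run and 0.48 to 0.71 in the others. Sites of the longest run were also weaker in B6 (median 49.1 against 115 RPM) and less deeply depleted (median relative ratio 0.203 against 0.108), and the part of these in the contrast was not tested. The difference between these runs was not tested, since sites of a run share their neighbourhood and each mark has 1 column.

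**Figure D4:**
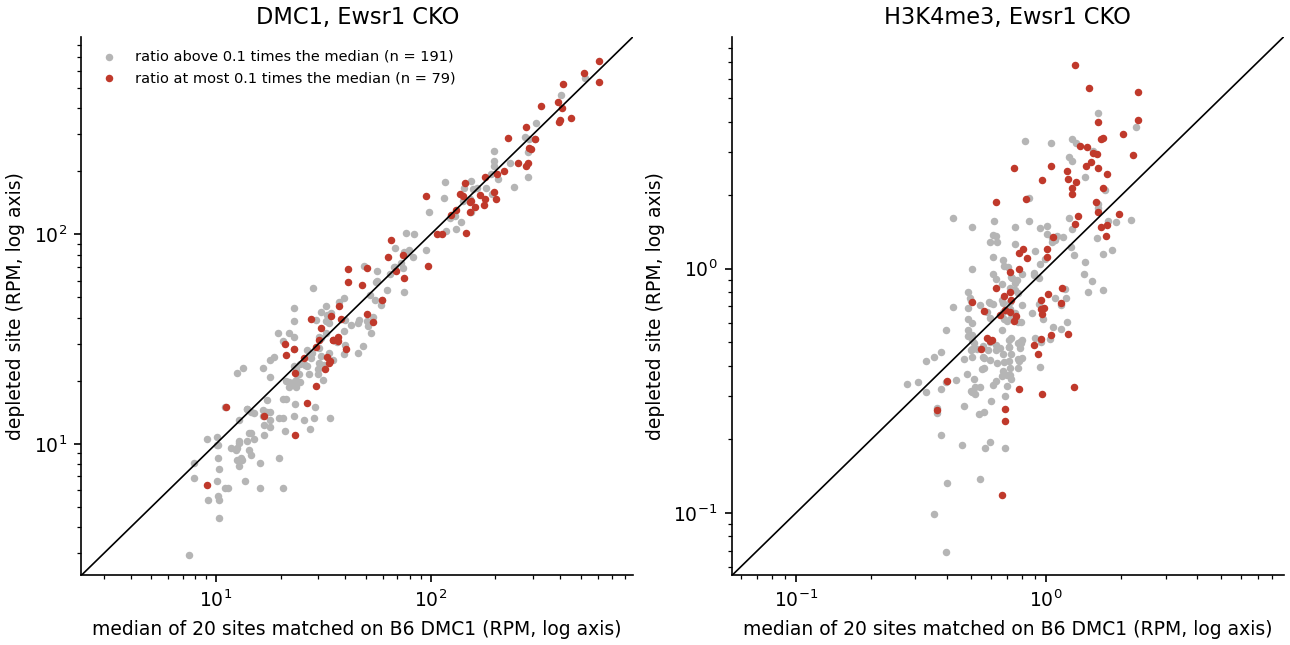
DMC1 (left) and H3K4me3 (right) in Ewsr1 CKO at each of the 270 depleted sites (vertical, RPM, log axis) against the median of 20 autosomal sites above the threshold matched on B6 DMC1 (horizontal, RPM, log axis); red marks the 79 sites with a relative ratio of at most 0.1 and the line equality. DMC1 lies along the line (median log2 difference −0.15), and H3K4me3 scatters widely on both sides of it (−0.070), with the highest values at red sites.

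**Figure D5:**
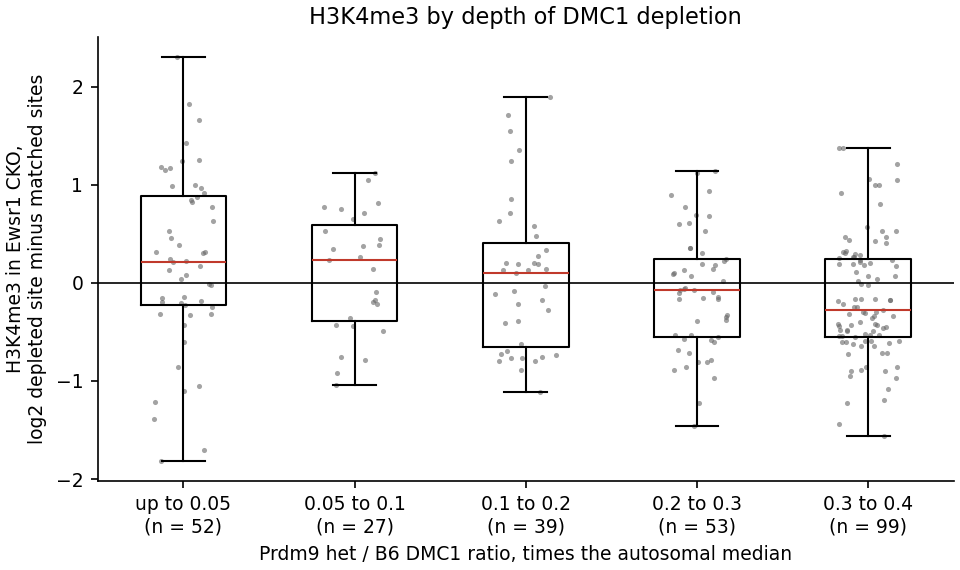
Log2 difference in Ewsr1 CKO H3K4me3 between each depleted site and its matched sites (vertical) by class of relative Prdm9 het to B6 DMC1 ratio (horizontal); points are sites, boxes span the quartiles with the median in red, and whiskers reach the farthest site within 1.5 times the box height. Medians run from −0.28 in the class from 0.3 to 0.4 to 0.22 in the class up to 0.05, with overlapping boxes.

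A separate deposited list gives sites of H3K4me3. Of the 270 depleted sites, 123 (45.6%, Wilson 95% interval 39.7 to 51.5%, which covers counting of sites only) shared 1 bp or more with an entry of that list. The share was 55.9% over all autosomal rows and 53.1% over the matched sites. It was 63.3% (50 of 79) at deeply depleted sites, whose matched sites had 65.3%, and 38.2% at the remaining 191. In runs it was 56.3%, beside 61.7% at matched sites. The listed share was thus not above the matched one at deeply depleted sites or in runs. The median log2 difference in H3K4me3 was 0.22 and 0.14 at these sites. At the 123 listed sites, H3K4me3 was 1.17 RPM and H3K36me3 1.65 RPM in the median, beside 1.04 and 1.45 RPM at the 4767 listed sites over other autosomal hotspots. Against listed sites matched on B6 DMC1 the median log2 differences were 0.056 for H3K4me3 (56 of 123 below) and −0.011 for H3K36me3 (62 of 123 below). At the 50 deeply depleted ones they were 0.32 and −0.089. The quartiles for H3K36me3, the other PRDM9 mark, were −0.55 and 0.59 over the 123. At the 147 depleted sites outside the list it was not measured in the columns used.

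Size and place were compared with the matched sites too. Their median width was 2436 bp, beside 2379 bp at matched sites, and the median gap to the nearest listed site was 75.6 kb, beside 82.6 kb. A protein-coding gene overlapped 159 of the 270 (58.9%, Wilson 95% interval 52.9 to 64.6%), beside 53.6% of matched sites and 54.1% of all autosomal rows. Both of these lie inside the interval, so the share was near the background. The interval covers counting of sites only, and neighbouring sites can share a gene. Exons, introns and UTRs were not resolved.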

How the data were processed

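Chromatin for DMC1 was sheared by sonication and that for histone marks was digested with micrococcal nuclease, per the labels' protocols. BWA 0.5.10, Trimmomatic 0.32 and build mm10 are named in the submitters' processing notes, with no role or order given. The peak caller, duplicate handling and the rule for shared sites are not given in the sources used here. The authors deposited RPM values, named so per the file headers, with 1 column per group. The denominator and any pooling of replicates are not stated, and 4 columns naming a group and mark without a matching sample were not used. All B6 and Ewsr1 CKO DMC1 values were whole multiples of 0.129 and 0.246 RPM (within 0.05 of a step). If a step is 1 read, the depleted sites held a median of 226 and 143 reads, and at least 44 and 12. The depth of the other columns is unknown.

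Relative ratios, runs, nearest-in-B6 matching (20 sites, no pseudocount for DMC1, 0.1 RPM for H3K4me3) and overlaps (repeated H3K4me3 intervals averaged, 5787 lines to 5567 sites) were computed in Python 3.11.15 with numpy 2.4.6, pandas 2.3.3 and scipy 1.17.1, and tested on simulated data. Gene bounds came from RefSeq GRCm38.p6, the assembly that UCSC names mm10, matched by position. The sites, limits and lists were chosen with earlier results of these data known. Named sites were chosen so: for the 6 runs with the most members, the first and last and the 2 strongest sites, rows above the threshold and bounds; the 3 lowest ratios at or above the B6 median; the sites beside the threshold; the 3 strongest outside runs; and the 3 highest in H3K4me3. The chromosome 9 run, the site at 0 RPM, the shorter chains, other sites in Nrg1, Plekha7 and Fat4 and the limit of 0.1 were chosen after values were seen. Alternatives changed the threshold, denominator, run rule, matching, pseudocount and overlap. Central bases of the sites were planned but no genome was used here, so promoter windows were shown instead.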

Additional observations from a re-analysis of the deposited data

How the results depend on the processing

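No paired analysis was possible because each group has a single column of values, and for the same reason no replicate was left out. The number of depleted sites (270) was 171 at 0.3 times the median, 487 at 0.5 times, 154 with 1 RPM added to both columns and 100 among sites at or above the B6 median. With Ewsr1 CKO as denominator it was 312, of which 210 were shared (77.8% of the 270 and 67.3% of the 312). The count thus depends on the rule. The members in runs (87) were 48 with no row allowed between them and 46 when a run needed 10 members, which left 1 run, and runs of 3 numbered 11. Without chromosome 14, chosen after seeing the data, 28 members in 4 runs were left. The members in runs and the number of runs each stayed within 1.5 times under 6 other settings, and the number of depleted sites under 2, at 248 with each chromosome's own median and at the 312 above.

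The Ewsr1 CKO DMC1 difference (−0.15) was −0.69 without matching, −0.044 in runs, −0.049 at sites at or above the B6 median and −0.32 when matched on H3K4me3 (added after seeing the data). The H3K4me3 difference (−0.070) was −0.27 without matching, 0.14 in runs and 0.22 at sites at most 0.1 times the median, so its sign depends on which depleted sites are taken. The share with a listed H3K4me3 site (45.6%) was 56.3% in runs and 63.3% at sites at most 0.1 times the median. The cause of these shifts was not tested.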

Other observations

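Prdm9 itself lies on chromosome 17, at 15543072 to 15564374 in GRCm38.p6. None of the 16 listed sites within 5 Mb of it was depleted, a number too small to read against the 3.09% of all autosomal rows. Their relative ratios ran from 0.437 to 1.39 with a median of 0.863, and the nearest depleted site was 12.4 Mb away. Chromosome 17 held 9 depleted sites among 251 rows (3.59%), near that share.

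Hotspots with high ratios were seen beside the runs. Of the 63 rows above the threshold that lay in, or within 1 Mb of, the runs other than the longest, 12 (19.0%) had a relative ratio of 2 or more, beside 2.92% of autosomal rows. The highest was the Spata5 site before the chromosome 3 run, at 5.79. These rows were found with the same ratio that defines the runs, so the values are a description.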
